A study of Mus musculus with 23 samples.

Results

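This report follows 10 genes of DNA and histone modification, several of which are recurrently mutated in human leukemias: Tet2, Tet3, Dnmt3a, Dnmt1, Ezh2, Ezh1, Asxl1, Kdm6a, Kmt2d and Setd2. They were taken by symbol from the 32285 genes of the expression matrices, and all 10 were found. The mice were 2 months old and of the C57BL/6 strain by the labels, and the changes had been made in C57BL/6N zygotes. They carried either unaltered Stat5b (WT) or a Stat5b allele in which 1 tyrosine codon was changed to phenylalanine (Y665F) or to histidine (Y665H). Stat5b encodes a signal transducer of cytokine receptors that enters the nucleus and binds DNA. Lymph node (LN) gave 2 WT, 3 Y665F heterozygous (het) and 2 Y665F homozygous (homo) libraries, bone marrow (BM) gave 2 WT, 2 Y665F and 2 Y665H libraries, and spleen gave 1 library of each of these genotypes. The labels give no zygosity for BM and spleen. Spleen cells had been isolated for CD45, and a legend to the spleen data, whose wording names lymph nodes, describes each library as 3 mice combined.

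Between 4237 and 18711 barcodes a library were kept, from 2621583 to 16101373 unique molecular identifiers (UMIs) per library in LN, 36889328 to 47206322 in spleen and 16399123 to 55768078 in BM. LN het replicate 3 and LN homo replicate 1 were shallow, with medians of 410 and 436 UMIs per kept cell. In BM, every replicate 1 library held Xist, at 237 to 884 CPM (the UMIs of a gene as parts of all UMIs of the library or class, on the usual CPM scale), and each replicate 2 library held Y-linked transcripts, at 64.1 to 109 CPM. Xist did not pass 0.587 CPM in replicate 2, so that replicate number and sex cannot be told apart in BM. The methods name male mice as the source of tissues, and the labels give no sex. Values within a replicate number are therefore given beside the BM results. Cells were gated to classes by marker lists that hold none of the 10 genes. Markers outside the gates were higher inside their own gate in most libraries, except Fgd5 for the stem gate (2 of 6 libraries) and Gp6 for the megakaryocyte gate (1 of 6).

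The 10 genes act at a few connected steps. Dnmt3a places new methyl groups on cytosines, Dnmt1 copies existing ones after replication, and Tet2 and Tet3 oxidise them as a step toward their removal. Ezh2 and Ezh1 are the alternative catalytic subunits of Polycomb repressive complex 2, which lays a repressive histone mark, and Kdm6a, encoded on the X chromosome, removes that mark. Asxl1 is a partner of the histone deubiquitinase Bap1, Kmt2d methylates histone H3 at enhancers, and Setd2 does so along transcribed gene bodies. Loss-of-function changes in Tet2, Dnmt3a and Asxl1 are common in clonal hematopoiesis, and Ezh2 is known to be abundant in dividing progenitors while Ezh1 persists in resting cells.

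The promoters of Ezh2, Dnmt1 and Kmt2d are shown because they held the matches found in a search of both strands for the STAT-type motif TTCNNNGAA and the E2F-type motifs TTTCGCGC and TTTGGCGC. E2F factors drive genes of DNA replication. Each run covers 250 bases before to 50 after a RefSeq gene start on GRCm38.p6, 5′ to 3′ on the strand of the gene, with the matching letters in capitals. The windows are chr6:47594981-47595280 on the minus strand for Ezh2, chr9:20952574-20952873 on the minus strand for Dnmt1 and chr15:98871156-98871455 on the minus strand for Kmt2d.
Ezh2: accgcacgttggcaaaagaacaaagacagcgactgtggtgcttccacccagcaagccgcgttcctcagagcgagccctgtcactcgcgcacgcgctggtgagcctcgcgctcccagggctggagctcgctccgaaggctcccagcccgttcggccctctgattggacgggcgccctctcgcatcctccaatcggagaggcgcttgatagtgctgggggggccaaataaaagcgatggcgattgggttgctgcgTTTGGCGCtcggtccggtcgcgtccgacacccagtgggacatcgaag
Dnmt1: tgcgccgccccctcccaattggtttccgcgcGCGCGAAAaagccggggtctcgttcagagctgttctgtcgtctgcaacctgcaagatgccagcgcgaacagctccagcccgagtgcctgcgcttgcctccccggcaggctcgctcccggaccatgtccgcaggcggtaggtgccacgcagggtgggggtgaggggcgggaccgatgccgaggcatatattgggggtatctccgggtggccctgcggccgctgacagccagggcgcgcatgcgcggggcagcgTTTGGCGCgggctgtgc
Kmt2d: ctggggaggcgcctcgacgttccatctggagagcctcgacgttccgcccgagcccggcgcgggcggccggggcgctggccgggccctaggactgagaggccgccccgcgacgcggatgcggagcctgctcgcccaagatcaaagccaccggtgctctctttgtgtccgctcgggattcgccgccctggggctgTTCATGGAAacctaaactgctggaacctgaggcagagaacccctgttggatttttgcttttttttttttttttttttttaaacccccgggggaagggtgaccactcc

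All 10 genes had a promoter entry, 14 entries in all. The E2F-type letters stood 3 bases after the start of Ezh2, and 219 bases before and 33 bases after 1 of the 3 starts of Dnmt1. They occurred in 0.813% of the 32851 RefSeq promoters of this length. The STAT-type letters stood 57 bases before the start of Kmt2d and in no other window of the 10 genes. They occurred in 8.3% of all promoters. The windows of the 10 genes held a median of 25.0 CpG pairs, from 2 to 57, against a median of 7.0 over all promoters. A match of letters is not a bound site.

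In BM the class with the highest mean level in CPM was the stem gate for Tet3, Dnmt3a, Asxl1, Kdm6a and Kmt2d, monocytes for Tet2, megakaryocyte-gated cells for Dnmt1, B-gated cells for Ezh2 and Ezh1 and lymphoid-primed cells for Setd2. The stem gate means rest on 1 to 13 UMIs a library for these 5 genes in WT and Y665H, so its first place is loosely set, and for Tet3 it measured 55.1 CPM beside 55.0 CPM in lymphoid-primed cells. The mean level of Ezh2 over the 6 libraries was 359 ± 76.5 CPM (SD) in B-gated cells, 184 ± 15.6 CPM in erythroid cells, 179 ± 40.8 CPM in megakaryocyte-gated cells, 175 ± 23.1 CPM in monocytes, 168 ± 28.0 CPM in lymphoid-primed cells, 145 ± 21.5 CPM in granulocyte-monocyte progenitors (GMP) and 127 ± 36.0 CPM in stem-gated cells. The lowest B-gated library, at 264 CPM, lay above the highest library of every other class. Fitted with the library as a block, Ezh2 in B-gated cells was 1.06 ± 0.08 (SE) above the mean of the other classes on the log2 scale (edgeR quasi-likelihood test, adjusted p = 2.33e-17), where 13.1% of all genes were higher in the B gate. It was lower in stem-gated cells, by -0.80, and in GMP, by -0.37.

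Tet2, Tet3, Dnmt3a, Ezh1, Kdm6a, Kmt2d and Setd2 were lower in erythroid cells than in the mean of the other classes, 7 of the 10 genes, and 35.6% of all genes were also lower there. The fitted difference was -0.98 ± 0.11 for Dnmt3a and -0.97 ± 0.14 for Tet2, and lay between -0.58 and -0.21 for the other 5. Dnmt3a ran from 8.47 to 30.2 CPM over the 6 erythroid sums, against 30.3 to 52.0 CPM in lymphoid-primed cells, and Tet2 averaged 8.2 ± 5.0 CPM against 25.0 ± 11.4 CPM in monocytes. Tet2 was higher in monocytes (0.67) and GMP (0.43), and Dnmt3a (0.45) and Setd2 (0.39) were higher in lymphoid-primed cells. In all, 15 of 70 pairs of gene and class passed the test, 21.4% against 27.5% over all genes and classes.

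The erythroid result depends in part on how the sums were scaled. With library totals alone the median of all genes in erythroid cells moved from 0.01 to -0.32 on the log2 scale. The 7 genes stayed lower and called under each of the 3 scalings, while Ezh2 in erythroid cells went from 0.36, called, to 0.02, not called. Along the order of the 7 classes by mean log2 level, which adds a prior count of 2 UMIs and so lifts genes of few UMIs in the small stem gate, most neighbours did not differ beyond their spread between libraries. Of the 6 steps between neighbours, none exceeded 1 SD of the difference for Dnmt1, Asxl1 and Setd2, 1 did for Tet2, Tet3 and Dnmt3a, and 2 did for Ezh2, Ezh1, Kdm6a and Kmt2d. For Tet2 and Tet3 that step was the last, down to erythroid cells, in 6 of 6 libraries.

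**Figure D1:**
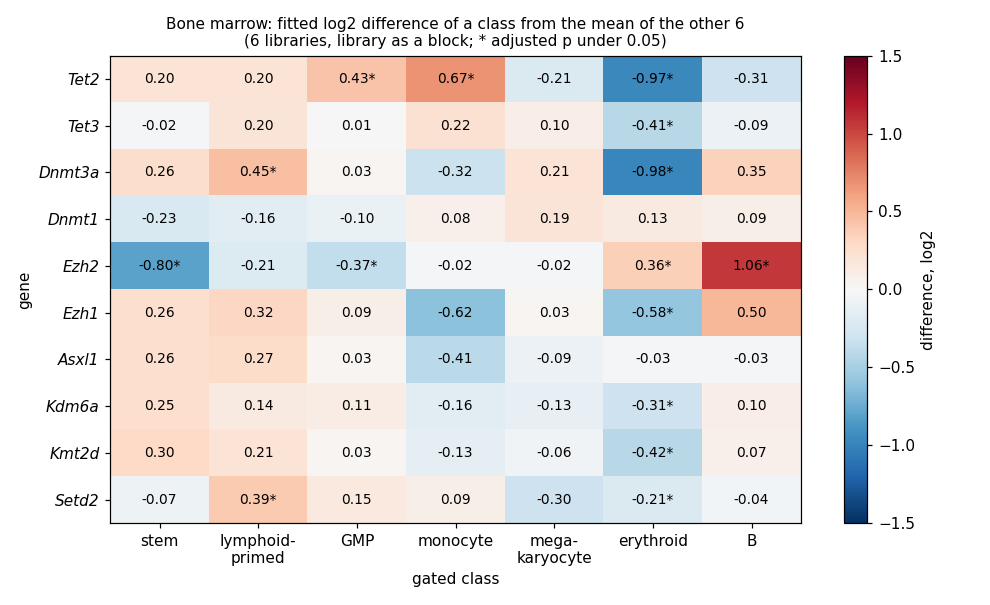
Fitted log2 difference of each BM class (x axis) from the mean of the other 6 classes for the 10 genes (y axis), over 6 libraries with the library as a block; colour and printed value show the same quantity and asterisks mark an adjusted p under 0.05. The erythroid column is negative for 8 of the 10 genes, and Ezh2 in the B gate, at 1.06, is the highest value.

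Within every BM library, cells were also split by whether they held any UMI of a list of 20 proliferation genes. Ezh2 was higher in the cells with such a UMI in 6 of 6 BM libraries, by a mean of 0.49 ± 0.14 (SD) on the log2 scale of CPM, in 7 of 7 LN libraries by 1.10 ± 0.55 and in 3 of 3 spleen libraries by 0.68 ± 0.59. Dnmt1 was higher in 5 of 6 BM libraries (0.34 ± 0.24), 7 of 7 LN libraries (0.63 ± 0.27) and 3 of 3 spleen libraries (0.57 ± 0.26). These 2 genes are those with the E2F-type letters shown above, for Dnmt1 in only 1 of its 3 promoter entries. Whether the letters have a part in the split was not tested. The other 8 genes had negative means in BM, from -1.19 ± 0.48 for Ezh1 and -0.97 ± 0.47 for Tet2 to -0.42 ± 0.55 for Asxl1. Ezh1, Tet2, Dnmt3a, Kdm6a and Kmt2d were lower with a proliferation UMI in all 6 BM libraries. The same 8 genes had means between -0.07 and 0.13 in LN. A deeper cell is more likely to hold such a UMI, and 86.1% to 98.1% of BM cells did, so the split also follows depth, whose part was not tested.

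The comparison of genotypes in BM asked whether the levels of these regulators differed with either change of STAT5B. Over all BM cells, Tet2, Tet3, Dnmt3a and Kmt2d were higher in Y665F than in WT, 4 of 10 genes, with 15.5% of all 13923 genes higher in that comparison. In the longest decile of transcript length, which holds all 4 of these genes, 34.7% of genes were higher. None of the 10 was lower. In Y665H none of the 10 was called (0.0% of all genes were).

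Dnmt3a measured 26.5 and 17.5 CPM in WT replicates 1 and 2, 42.9 and 47.4 CPM in Y665F, and 14.2 and 16.1 CPM in Y665H. The Y665F pair lay above the WT pair, and the Y665H pair below it. The fitted Y665F difference from WT was 0.89 ± 0.21 (SE, log2; edgeR adjusted p = 0.00321). Kmt2d measured 18.8 and 11.3 CPM in WT, 28.7 and 38.0 CPM in Y665F, and 8.9 and 14.4 CPM in Y665H, where the Y665H libraries overlapped WT. Its Y665F difference from WT was 1.01 ± 0.25 (edgeR adjusted p = 0.0055).

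Tet3 measured 54.1 and 23.5 CPM in WT, 60.8 and 80.2 CPM in Y665F, and 20.3 and 22.7 CPM in Y665H. The WT replicates differed from each other more than WT replicate 1 did from Y665F replicate 1. The fitted Y665F difference from WT was 0.75 ± 0.25 (edgeR adjusted p = 0.0313). Tet2 followed the same order, with 20.9 and 9.4 CPM in WT, 24.9 and 29.8 CPM in Y665F, and 9.5 and 9.4 CPM in Y665H, and its Y665F difference was 0.74 ± 0.25 (edgeR adjusted p = 0.0276). Ezh1 (0.58, edgeR adjusted p = 0.0549) and Asxl1 (0.52, edgeR adjusted p = 0.0606) did not pass the test, although for both genes the Y665F pair lay above the WT pair. With the replicate number, and with it sex, as a term of the fit, Ezh1 passed (edgeR adjusted p = 0.0450) and Asxl1 did not (0.0567). Setd2 measured 74.0 and 49.9 CPM in WT and 77.2 and 99.6 CPM in Y665F, a difference of 0.36 ± 0.21 that did not pass.

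Dnmt1 and Ezh2 had no called difference and values below 0. Dnmt1 measured 191 and 161 CPM in WT and 155 and 165 CPM in Y665F, -0.30 ± 0.23 (edgeR adjusted p = 0.331). Ezh2 measured 170 and 172 CPM in WT and 145 and 192 CPM in Y665F, -0.20 ± 0.24 (edgeR adjusted p = 0.547). With library totals alone these values were -0.14 and -0.02. That scaling moved the median of all genes from 0.04 to 0.20 in Y665F against WT, and from -0.01 to -0.27 in Y665H against WT, and the same 4 genes were called. The proliferation list summed to 2698 and 2243 CPM in WT, 1688 and 2363 CPM in Y665F, and 2580 and 2249 CPM in Y665H, so its level overlapped between the genotypes. Other measures separated Y665F from WT over all cells. Mitochondrial genes took 1.63% and 1.11% of the UMIs in WT, 1.74% and 2.23% in Y665F and 1.03% and 1.29% in Y665H, and ribosomal genes 26.2% and 28.6% in WT and 31.0% and 29.3% in Y665F. Neutrophil granule genes took 0.00378% and 0.0137% in WT and 0.339% and 0.143% in Y665F. Hemoglobin genes took 0.0072% to 0.01015% in WT and 0.00164% to 0.00281% in Y665F. The part of these measures in the calls was not tested.

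**Figure D2:**
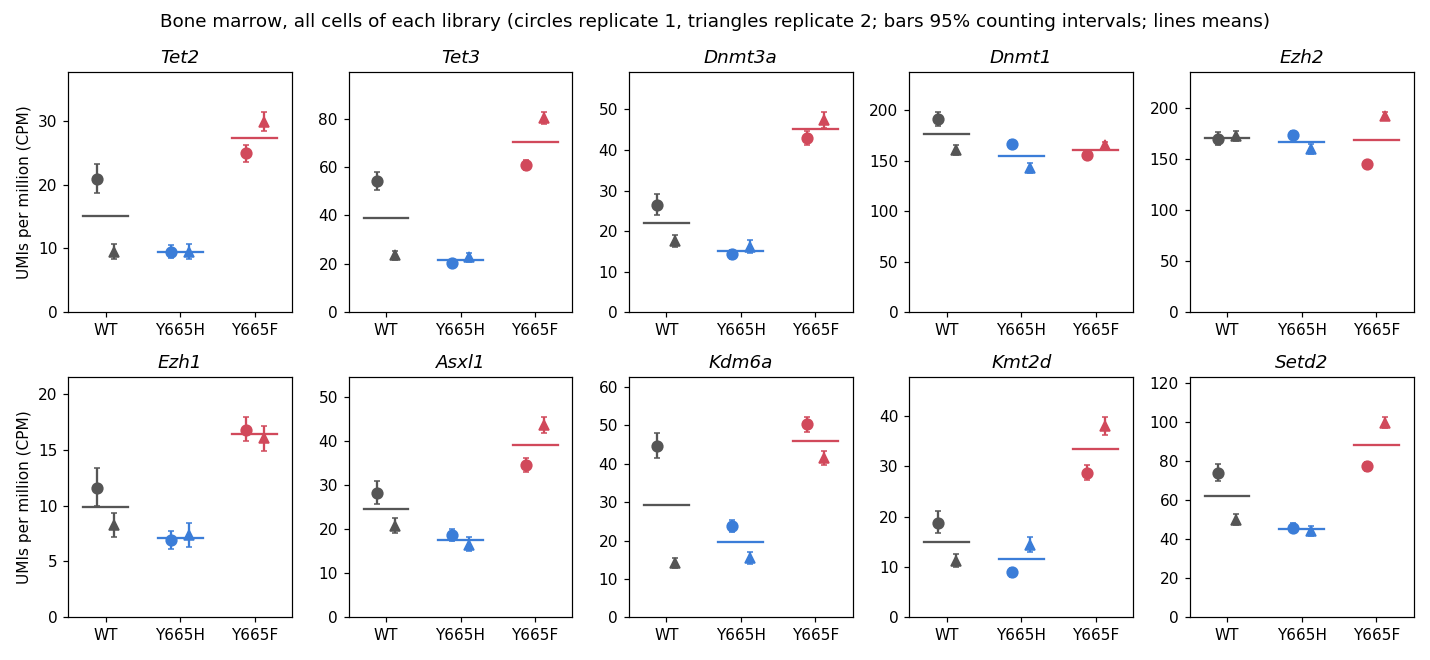
Level of each gene over all cells of a BM library, in CPM (y axis), by genotype (x axis); circles are replicate 1, triangles replicate 2, bars are exact 95% counting intervals and lines are means of the 2 libraries. The Y665F points lie above the WT points for Tet2, Tet3, Dnmt3a, Ezh1, Asxl1, Kmt2d and Setd2, and the WT circle lies above the WT triangle for 9 of 10 genes. The share of all genes whose Y665F points lie above the WT points is not given, so nothing is read from the number of genes that do.

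The 2 WT libraries bear unequally on these calls. Within replicate 1, Y665F was above WT for 8 of 10 genes with a median log2 ratio of CPM of 0.21, while within replicate 2 it was above for 10 of 10 with a median of 1.25. WT replicate 1 was itself above WT replicate 2 for 9 of 10 genes, with a median of 0.58. Over all genes this ratio was above 0 for 41.9% in the shortest decile of transcript length. In the longest decile it was above 0 for 92.5%, with a median of 0.65. No share over all genes is given for the counts within a replicate number, so nothing is read from them. Without WT replicate 1, 5 of 10 genes were called over all cells, and without WT replicate 2 only Dnmt3a was (0.76, edgeR adjusted p = 0.0357). Without Y665F replicate 2, fewer of the 10 were called than with all libraries, and among cells without a proliferation UMI none was. Cells with such a UMI held 93.2% to 98.8% of the UMIs of a BM library. The cells without it thus left few UMIs, and nothing is read from that loss. No share over all genes is given for these settings. Dnmt3a was above WT by 0.69 within replicate 1 and 1.44 within replicate 2, and Kmt2d by 0.61 and 1.75. The corresponding ratios of Tet2 were 0.25 and 1.66, and those of Tet3 were 0.17 and 1.77.

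The Y665F BM libraries also held another mix of gated classes. Erythroid-gated cells numbered 781 and 2235 in WT, 3190 and 2486 in Y665H, and 1035 and 558 in Y665F, of 4237 to 18711 cells a library. GMP numbered 1493 and 2651 in WT, 3038 and 2983 in Y665H, and 8623 and 10600 in Y665F. These are counts of gated barcodes in libraries, not of cells in the marrow. By flow cytometry the paper found GMP and megakaryocytic erythroid progenitor numbers without a significant difference between the genotypes. Since most of the 10 genes were lower in erythroid cells than elsewhere, the comparison was repeated within each class, where 61 of the 70 pairs of gene and class passed the filter on low counts. The 9 that did not were Tet2 and Ezh1 in megakaryocyte-gated cells, Ezh1 and Kmt2d in monocytes, and Tet2, Ezh1, Asxl1, Kdm6a and Kmt2d in stem-gated cells.

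Of the 61 pairs, 8 were higher in Y665F than WT and none was lower, where 4.67% of all genes by classes were higher. The 8 include 2 in megakaryocyte-gated cells that could pass the filter on their Y665F libraries alone, so nothing is read from this count, and the other 6 were all in erythroid cells. All 10 genes passed the filter in erythroid cells, where 6 of them were higher against 11.2% of all genes. That share was not split by transcript length, and most of the 10 genes are long. Tet3 measured 22.9 and 16.2 CPM in erythroid cells of WT, 41.8 and 70.7 CPM in Y665F and 15.5 and 17.9 CPM in Y665H, a difference from WT of 1.27 ± 0.24 (edgeR adjusted p = 0.00076). Tet2 measured 5.7 and 4.8 CPM in WT, 11.4 and 17.0 CPM in Y665F, and 5.3 and 5.1 CPM in Y665H, a difference of 1.18 ± 0.29 (edgeR adjusted p = 0.0059). For both genes the Y665F libraries lay apart from all other libraries, which adds nothing to the calls, since these rest on the same libraries.

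The other erythroid differences were 0.96 for Kdm6a, 0.92 for Dnmt3a, 0.80 for Kmt2d and 0.62 for Setd2. All 6 were higher in Y665F within each replicate number, and the share of all genes that were is not given. The 6 were called on these same libraries, so nothing is read from this count. The ratios within replicate 1 were 1.01 for Tet2, 0.87 for Tet3, 0.77 for Kdm6a, 0.72 for Setd2, 0.52 for Dnmt3a and 0.46 for Kmt2d, and those within replicate 2 ran from 0.96 for Setd2 to 2.12 for Tet3. Dnmt1 (-0.47) and Ezh2 (-0.13) did not pass the test in erythroid cells. The 5 GMP gate markers, all detected, summed to 190 and 186 CPM in erythroid-gated cells of WT and 260 and 495 CPM in those of Y665F, against 3408 to 6627 CPM in the GMP gates of these genotypes. Ribosomal genes took 29.3% and 30.2% of the UMIs of erythroid cells in WT, 34.7% and 32.3% in Y665F and 29.2% and 31.0% in Y665H. Mitochondrial genes took 1.19% and 0.925% in WT, 1.26% and 1.90% in Y665F and 0.849% and 1.15% in Y665H, so that for both gene classes the Y665F pair lay above the WT pair. Neutrophil granule genes took 0.00041% and 0.00059% in WT and 0.00738% and 0.0116% in Y665F, and hemoglobin genes 0.0195% and 0.0187% in WT and 0.00483% and 0.0165% in Y665F. The proliferation list summed to 3065 and 2648 CPM in WT and 2107 and 2593 CPM in Y665F, so the Y665F pair lay below the WT pair. The part of these 6 measures in the erythroid result was not tested.

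In megakaryocyte-gated cells Setd2 (2.14 ± 0.50, edgeR adjusted p = 0.0119) and Kdm6a (1.93 ± 0.60, edgeR adjusted p = 0.0480) were higher in Y665F, where 2.51% of all genes were. Their Y665F libraries, where they were high, were enough for both pairs to pass the filter on low counts, so these 2 calls are given as values and not as support. Setd2 had 3 and 7 UMIs in WT (18.2 and 18.9 CPM) and 143 and 107 in Y665F (65.2 and 99.0 CPM). Kdm6a had 5 and 1 UMIs in WT (30.4 and 2.7 CPM) and 107 and 40 in Y665F (48.8 and 37.0 CPM). The GMP gate markers summed to 450 and 410 CPM in these cells of WT and 470 and 585 CPM in those of Y665F. Mitochondrial genes took 1.41% and 0.985% of the UMIs in WT and 1.48% and 2.14% in Y665F, ribosomal genes 27.7% and 28.1% against 31.1% and 28.8%, and granule genes 0.0073% and 0.00135% against 0.0135% and 0.0221%. All 4 measures were higher in both Y665F libraries than in either WT library, and their part was not tested. In GMP, Dnmt3a measured 37.3 and 20.7 CPM in WT and 45.9 and 46.5 CPM in Y665F (0.69, edgeR adjusted p = 0.0628), and Kmt2d measured 28.1 and 11.3 CPM in WT and 30.4 and 36.9 CPM in Y665F (0.84, edgeR adjusted p = 0.073). For these genes and Ezh1 the Y665F pair lay above the WT pair, and the other 7 genes overlapped. The share of all genes that lie so in GMP is not given, so nothing is read from this count. Tet3 measured 75.5 and 23.6 CPM in GMP of WT and 61.7 and 78.1 CPM in those of Y665F, with a replicate 1 ratio of -0.29 and a replicate 2 ratio of 1.73. By the main fit no gene of the 10 was called in GMP, lymphoid-primed, stem-gated, monocyte or B-gated cells. The count of calls with the replicate number, and with it sex, as a term of the fit is given in the closing section.

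A call in one class and none in another did not amount to a difference between classes. In a test of that difference, 0 of 70 pairs passed for Y665F (edgeR, 7 at an unadjusted p under 0.05, lowest adjusted p = 0.0945), against 0.164% of all genes and classes. For Y665H 0 of 70 pairs passed (4 unadjusted), against 0.0%. Leaving out WT replicate 2 cut the within-class calls from 8 to 2, and leaving out WT replicate 1 raised them to 16. Leaving out Y665F replicate 2 gave 5.

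**Figure D3:**
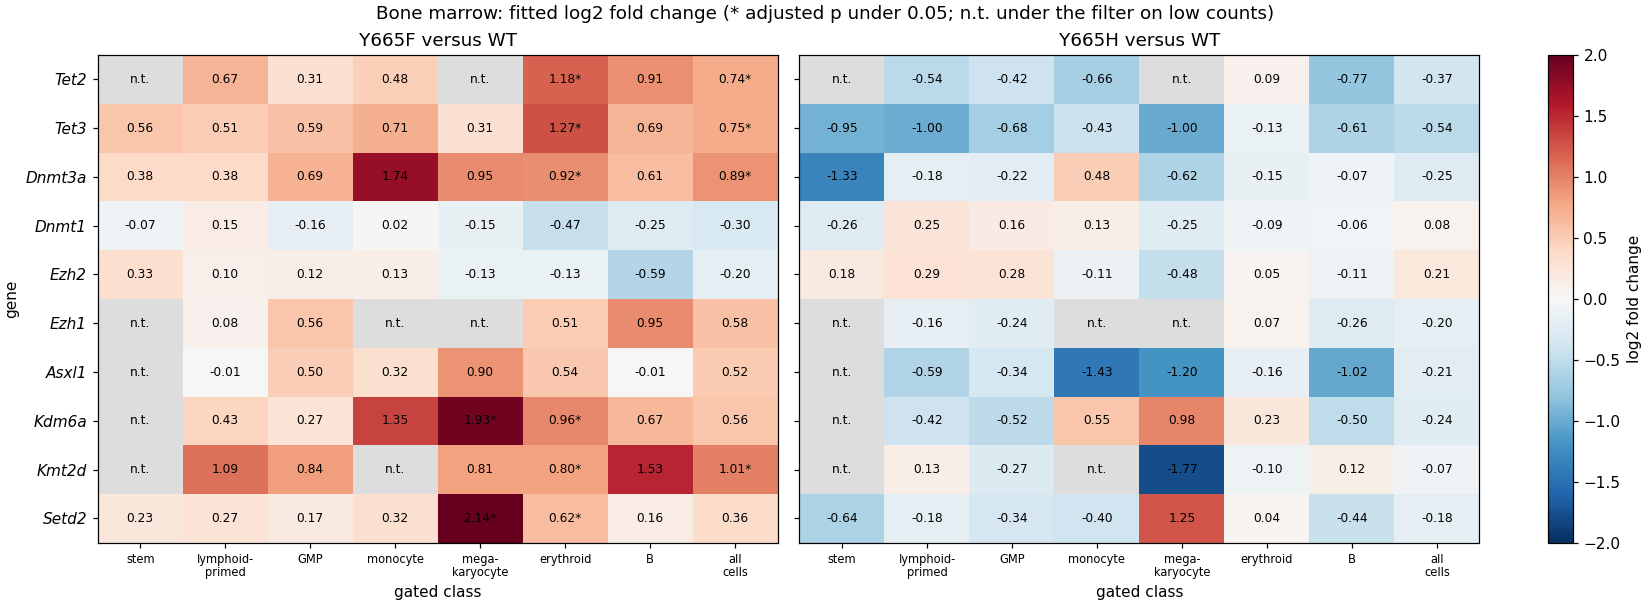
Fitted log2 fold change against WT of the 10 genes (y axis) in each BM class and over all cells (x axis), for Y665F (left) and Y665H (right); asterisks mark an adjusted p under 0.05 and n.t. marks pairs under the filter on low counts. The asterisks stand in the Y665F panel, in the erythroid, megakaryocyte and all-cell columns, and the Y665H panel has none.

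Y665H did not differ from WT in any of the 61 pairs by edgeR (2 at an unadjusted p under 0.05) or by DESeq2 (0), and 0.0% of all genes and classes did. The fitted values had a median of -0.24 and 17 of 61 were above 0. Over all cells they ran from -0.54 for Tet3 to 0.21 for Ezh2, with a median SE of 0.24. Within replicate 1, Y665H was above WT for 1 of 10 genes, with a median ratio of -0.82, and within replicate 2 for 3 of 10, with a median of -0.11. No share over all genes is given for these counts within a replicate number. Without WT replicate 2, 4 pairs were called. Scaling by library totals alone gave -0.04 for Ezh2 and -0.19 for Dnmt1 over all cells, against 0.21 and 0.08 by the main scaling, none of them called.

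The 2 amino acid changes at the same residue were also compared directly. In that comparison 17 of 61 pairs were higher in Y665F than in Y665H and none was lower, where 8.3% of all genes by classes were higher. The 17 include 3 in megakaryocyte-gated cells that could pass the filter on their Y665F libraries alone, so nothing is read from this count either, and 14 were in other classes. Over all cells 7 of 10 genes were higher, against 23.5% of all genes. These were Tet3 (1.28 ± 0.26), Dnmt3a (1.14 ± 0.21), Tet2 (1.11 ± 0.25), Kmt2d (1.08 ± 0.25), Ezh1 (0.78 ± 0.23), Asxl1 (0.72 ± 0.21) and Setd2 (0.54 ± 0.21). For each of the 7, both Y665F libraries lay above both Y665H libraries, and the share of all genes that lie so is not given. The 7 were called on these same libraries, so nothing is read from this. Setd2 was not called with RLE factors or by DESeq2. With the replicate number, and with it sex, as a term of the fit, Kdm6a was higher as well (0.83 ± 0.22, edgeR adjusted p = 0.00083), making 8 of 10. Without Y665H replicate 1 fewer of the 10 genes were called, and among cells without a proliferation UMI none was. Those cells held few of the BM UMIs, as given above, so nothing is read from that loss.

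By class, 6 of 10 genes were higher in erythroid cells (13.7% of all genes), 5 of 10 in GMP (12.9% of all genes), 2 of 10 in lymphoid-primed cells (6.61% of all genes) and 1 of 10 in B-gated cells (2.62% of all genes). In megakaryocyte-gated cells 3 were higher (4.49% of all genes), Kmt2d, Asxl1 and Dnmt3a, on 1 to 6 UMIs in each Y665H library, and they too could pass the filter on their Y665F libraries. The 5 GMP genes were Tet3 (1.27), Kmt2d (1.11), Dnmt3a (0.92), Asxl1 (0.84) and Ezh1 (0.80). In GMP, mitochondrial genes took 1.83% and 2.20% of the UMIs in Y665F and 1.17% and 1.28% in Y665H, and granule genes 0.0682% and 0.042% against 0.00634% and 0.00187%, and their part was not tested. Within replicate 1, Y665F was above Y665H for 8 of 10 genes with a median ratio of 1.18, and within replicate 2 for 10 of 10 with a median of 1.40. No share over all genes is given for these counts within a replicate number. Leaving out Y665F replicate 2 or Y665H replicate 1 reduced the 17 calls to 4, leaving out Y665H replicate 2 reduced them to 9, and no other single library took them below 14.

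Kdm6a, a gene known to escape X inactivation, had the widest gap of the 10 genes between the 2 WT libraries. Over all cells it measured 44.6 CPM in WT replicate 1, with Xist, and 14.1 CPM in WT replicate 2, without it, a log2 ratio of 1.66, beside 1.21 for Tet3 and 1.15 for Tet2. The corresponding levels were 50.3 and 41.5 CPM in Y665F, a ratio of 0.28, and 23.8 and 15.5 CPM in Y665H, a ratio of 0.62. Y665F was above WT by 0.17 within replicate 1 and by 1.55 within replicate 2. The fitted Y665F difference from WT was 0.56 ± 0.45 (edgeR adjusted p = 0.392). With the replicate number, and with it sex, as a term of the fit it was 0.67 ± 0.23 and passed (edgeR adjusted p = 0.0112), as did Ezh1 (0.58, edgeR adjusted p = 0.0450). Whether sex has a part in the gap of Kdm6a was not tested. Kdm5c, another X-linked histone demethylase known to escape inactivation, measured 61.6 and 32.0 CPM in WT, 55.1 and 38.6 CPM in Y665F, and 44.9 and 25.5 CPM in Y665H, higher in replicate 1 in each genotype.

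Most of the 10 genes have long transcripts, and BM libraries differed by transcript length. The longest annotated transcript of 8 of the 10 fell in the longest 3 deciles of the genes tested, from 5870 bases for Dnmt1 to 19823 for Kmt2d, while Ezh1 has 4207 bases and Ezh2 2787. Over all genes, the median Y665F difference from WT rose from -0.52 in decile 2 to 0.50 in the longest decile, in which 34.7% of genes were higher. In Y665H it went from 0.23 in the shortest decile to -0.16 in the longest. Between the 2 WT libraries the median ratio of replicate 1 to replicate 2 rose from -0.11 to 0.65. This ratio was scaled by library totals alone, unlike the fitted differences, so its height cannot be set beside theirs. Against the median of their own decile, 7 of the 10 genes were above it in Y665F, 3 in Y665H and 5 between the WT libraries. Beside the median of 0.50 in the longest decile, the Y665F differences of its 6 members were 1.01 for Kmt2d, 0.89 for Dnmt3a, 0.75 for Tet3, 0.74 for Tet2, 0.52 for Asxl1 and 0.36 for Setd2. Deciles were made over all BM cells only, and not for single classes or for Y665F against Y665H. The part of length in the calls was not tested.

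**Figure D4:**
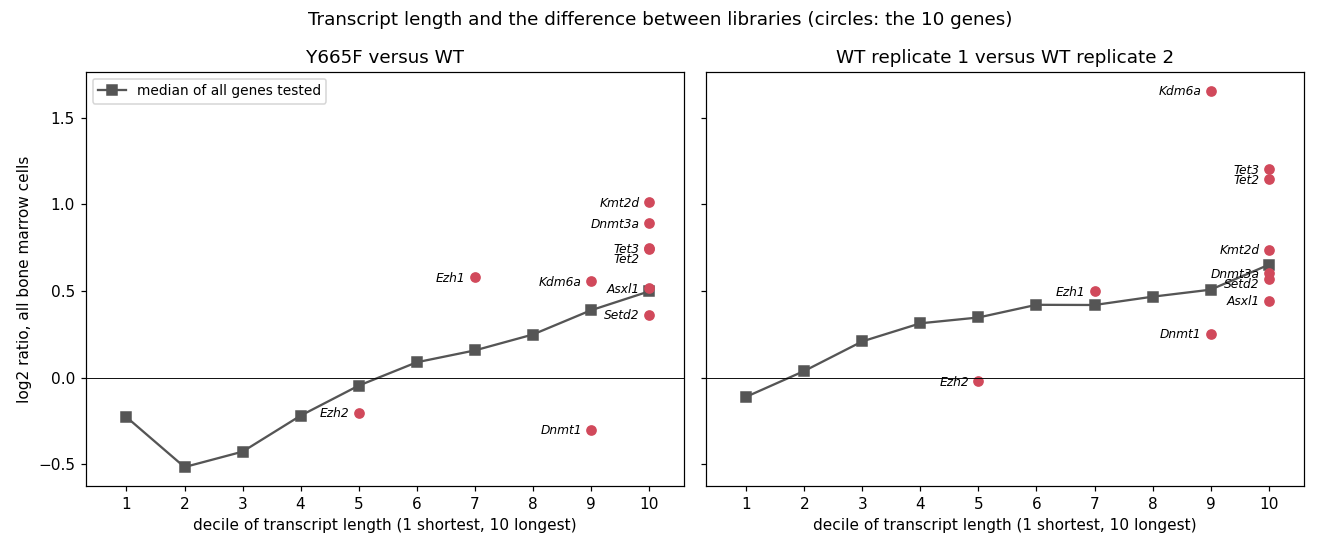
Log2 ratio over all BM cells (y axis) by decile of transcript length, numbered 1 to 10 from shortest to longest (x axis); squares joined by lines are medians of all genes tested and circles are the 10 genes. The left panel shows the fitted Y665F difference from WT and the right panel the ratio of the 2 WT libraries by library totals alone. Heights are therefore not comparable between the panels. The median line rises to 0.50 on the left and 0.65 on the right.

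In LN, taken from mice with 1 or 2 copies of Y665F, 1 of 46 pairs of gene and class was called in het mice and none in homo mice. Ezh2 was lower in B-gated cells of het mice, 1 of 10 genes there, with 0.109% of all genes lower in that class and 0.13% over all genes and classes. It measured 42.7 and 53.0 CPM in WT, 19.0, 23.0 and 35.9 CPM in het, and 30.9 and 20.8 CPM in homo. All 5 mutant libraries lay below both WT libraries, the 2 shallow ones on 8 and 6 UMIs. The het difference was -1.14 ± 0.21 (edgeR adjusted p = 0.0196) and the homo difference was -1.04 (edgeR adjusted p = 0.430).

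This single call did not hold under DESeq2 (adjusted p = 0.999925) or without WT replicate 2 (edgeR adjusted p = 0.153), het replicate 1 (0.503) or het replicate 2 (0.0716). The proliferation list in B-gated cells summed to 501 and 886 CPM in WT, 325, 358 and 584 CPM in het, and 510 and 438 CPM in homo. Among B-gated cells without a proliferation UMI the het difference was -0.32 (edgeR adjusted p = 0.992). Over all LN cells Ezh2 measured 38.8 and 44.4 CPM in WT, 21.9, 27.3 and 28.2 CPM in het, and 30.0 and 24.0 CPM in homo, again without overlap. The het difference there was -0.63 ± 0.13 (edgeR adjusted p = 0.0345), where 0.863% of all genes were lower, and the homo difference was -0.56 (edgeR adjusted p = 0.0598). The het call over all cells was lost when any 1 of the 7 libraries was left out (edgeR adjusted p from 0.0512 to 0.171). It was also lost with the replicate number as a term of the fit (0.0969), without both shallow libraries (0.0808), with at least 500 genes a barcode (0.994) and among cells without a proliferation UMI (0.518).

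The het call of Ezh2 over all cells was kept with RLE factors, library totals alone and DESeq2. In homo Ezh2 over all cells was called with library totals alone (edgeR adjusted p = 0.0343) and without the filter on low counts (0.00714). The other 9 genes had no call in LN by the main fit. Without that filter 2 of 10 genes were called over all cells in het. Over all cells Tet2 ran from 33.7 to 42.0 CPM over the 7 libraries, Tet3 from 99.6 to 125 CPM, and Dnmt3a from 38.7 to 48.7 CPM, with WT and mutant libraries overlapping. Dnmt1 measured 84.8 and 98.5 CPM in WT, 75.1 to 85.5 CPM in het and 74.7 and 78.1 CPM in homo, where the homo pair lay below WT. Kmt2d measured 78.8 and 80.1 CPM in WT and 83.4 to 115 CPM in the 5 mutant libraries, and Setd2 127 and 141 CPM in WT and 89.3 to 113 CPM in the mutants. For Kmt2d the mutants lay above WT and for Setd2 below it, and neither passed the test. The share of all genes without overlap is not given for LN. In homo mice 0 of 46 pairs were called by edgeR (6 unadjusted) or by DESeq2, against 0.219% of all genes and classes. The difference of the homo effect between classes passed in 0 of 50 pairs (edgeR, 3 unadjusted), against 0.0926%. The 4 LN pairs under the filter were Ezh2 and Ezh1 in Ccl5-positive CD8 T cells and Ezh1 and Kdm6a in regulatory T cells.

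Spleen had 1 library per genotype, so ratios carry an interval for counting error only and no test. The sum of the 10 genes was lower in Y665F than in WT by -0.23 (-0.26 to -0.21) on the log2 scale of CPM, and in Y665H the ratio was -0.01 (-0.03 to 0.01). Spleen ratios were scaled by library totals alone, and the median ratio of all genes is not given. Without that median, a shift shared by all genes cannot be told apart here from one of these 10. None of the 10 passed a 2-fold difference in either library, against 10.8% of all genes in Y665F and 7.71% in Y665H. Setd2 was at 137 CPM in WT, 104 in Y665F and 146 in Y665H. Ezh1 was at 50.6, 36.9 and 45.4 CPM, Dnmt3a at 43.7, 33.5 and 41.7 CPM, and Kmt2d at 106, 83.9 and 104 CPM in the same order. Ezh2 went the other way, with 38.9 CPM in WT, 45.0 in Y665F and 46.8 in Y665H. The proliferation list was at 377, 669 and 490 CPM. For 7 of the 10 genes the Y665F library lay below WT in spleen while both Y665F libraries lay above both WT libraries in BM. Of all genes, 38.2% lay on opposite sides in the 2 tissues, counted in either direction. For Y665H, 2 of the 10 genes lay below WT in BM and above it in spleen. Of all genes, 18.3% lay on opposite sides in Y665H, again in either direction. The shares in 1 direction alone are not given.

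Splenic neutrophils gave the widest ratios. They numbered 100 cells in WT, 296 in Y665F and 656 in Y665H. Ezh2 had 0 UMIs of 312739 in WT, which allows a level of up to 9.59 CPM, against 276 UMIs (90.1 CPM) in Y665F and 132 UMIs (44.5 CPM) in Y665H. It was thus at least 9.39-fold higher in Y665F and at least 4.63-fold higher in Y665H, with a floor of 3 UMIs per library. Dnmt1 had 3 UMIs in WT (9.59 CPM), 328 in Y665F (107 CPM) and 139 in Y665H (46.8 CPM), log2 ratios of 3.48 (1.92 to 5.77) and 2.29 (0.71 to 4.58). The proliferation list was at 48.0 CPM in the WT neutrophils, 2016 in Y665F and 669 in Y665H. Among neutrophils without a proliferation UMI, Dnmt1 was at 11.3 CPM in WT, on all 3 of its UMIs, 15.6 CPM in Y665F and 7.33 CPM in Y665H. Ezh2 was at 0 UMIs in these cells of WT, 4.87 CPM in Y665F and 11.6 CPM in Y665H.

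Other genes of the set were lower in Y665F neutrophils. The log2 ratios were -1.45 for Dnmt3a, -1.23 for Ezh1, -1.01 for Asxl1, -0.99 for Tet2 and -0.69 for Setd2. Of the 8 genes with over 3 UMIs in both libraries, 3 passed a 2-fold difference, against 37.3% of all genes. Median depth was 2835 UMIs a cell in WT neutrophils, 9722 in Y665F and 3267 in Y665H, and granule genes took 16.4%, 29.6% and 18.5% of their UMIs. The part of depth and of granule transcripts in these ratios was not tested. The ratios were scaled by library totals alone, and the median ratio of all genes in neutrophils is not given.

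**Figure D5:**
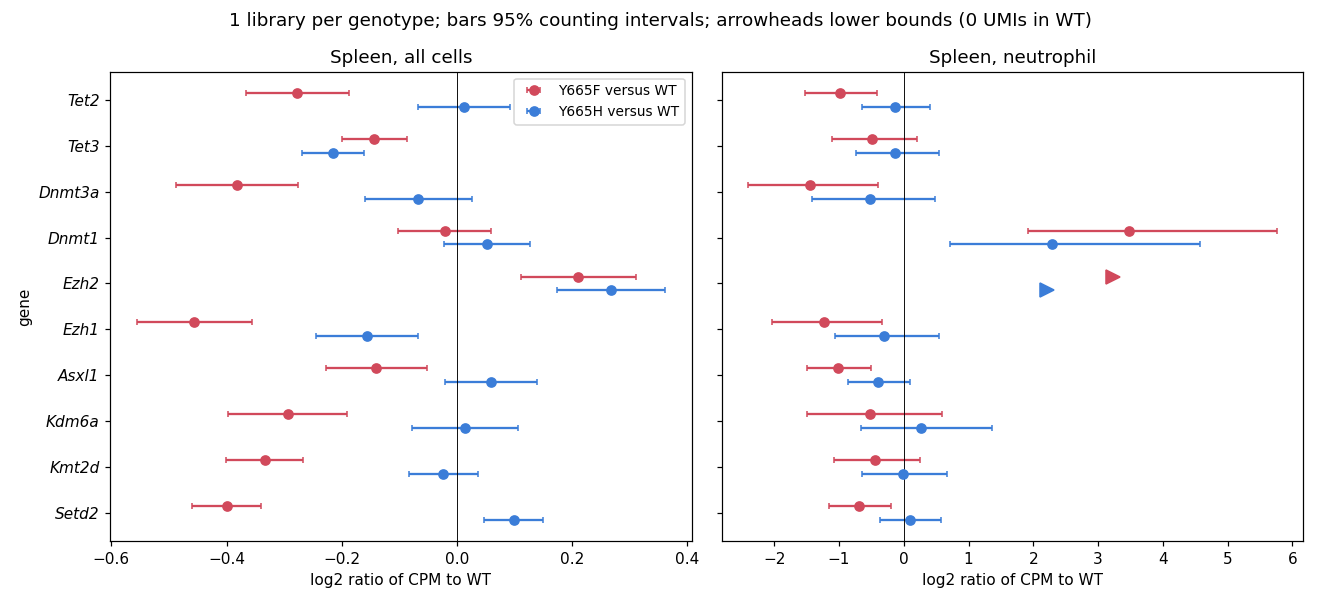
Log2 ratio of CPM to the WT spleen library (x axis) for the 10 genes (y axis), over all cells (left) and in neutrophils (right); bars are exact 95% counting intervals of 1 library per genotype and arrowheads are lower bounds where WT held 0 UMIs. Over all cells the points lie between -0.46 and 0.27, and in neutrophils Dnmt1 and Ezh2 lie to the right of the others.

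A wider list of 50 chromatin regulators was followed in the same fits. Over all BM cells 16 were higher and 5 lower in Y665F than in WT, where 15.5% of all genes were higher and 16.9% lower. Against Y665H, 17 were higher and 6 lower, where 23.5% of all genes were higher and 22.3% lower. These counts and shares were not split by transcript length. None of the 50 was called in Y665H against WT by edgeR (1 unadjusted), where 0.0% of all genes were. None was called over all LN cells in het or homo (5 unadjusted in each), where 1.95% and 5.02% of all genes were called. The 3 of smallest p in Y665F against WT were Tet1, which oxidises methylcytosine like Tet2 and Tet3, Setd1b, a histone H3 methyltransferase, and Dnmt3b, the de novo partner of Dnmt3a. Tet1 measured 14.3 and 11.3 CPM in WT, 27.3 and 36.1 CPM in Y665F, and 6.7 and 8.9 CPM in Y665H (1.15 ± 0.23 against WT, edgeR adjusted p = 0.00096). Dnmt3b measured 17.2 and 14.8 CPM in WT, 34.9 and 44.3 CPM in Y665F, and 9.5 and 14.2 CPM in Y665H (1.14 ± 0.23, edgeR adjusted p = 0.00109). In both, the Y665F libraries lay above the others and the WT replicates were close to each other. Both were picked by a small p on these same libraries, so this is description and not support. Kmt2a was among the 3 of smallest p against Y665H (1.51 ± 0.23), with 103 and 135 CPM in Y665F and 28.5 and 33.7 CPM in Y665H.

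Over the 42 sums of BM library and class, the genes whose levels correlated best with each of the 10 were listed. These sums share libraries and depth, so the correlations are descriptions over 42 sums and 3624 or 3625 genes. For Ezh2 they were Pbk (Pearson r = 0.86), Ccna2, a cyclin of DNA replication and mitosis (0.86), and Fbxo5, an inhibitor of mitotic exit (0.86). For Dnmt1 they included Ube2k (0.84) and Psmc3ip (0.83). For Tet2 they were Trip11 (0.79), Mbnl1 (0.77) and Zfp638 (0.76), and for Tet3 Atf7ip (0.83), Ankrd11 (0.82) and Birc6 (0.80). Dnmt3a was closest to Fut8 (0.77), Ezh1 to Cdc42ep3 (0.78), Asxl1 to Ywhag (0.74), Kmt2d to Ywhag (0.79), Kdm6a to Rsrp1 (0.79) and Setd2 to Cspp1 (0.75).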

How the data were processed

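The authors used Cell Ranger on GRCm38 (the file headers give 5.0.0 in LN, 6.0.0 in BM and spleen) and deposited raw UMI counts per gene and barcode. The submitters' processing notes name Cell Ranger 5.0 and Seurat 4.0. The labels name a 3′ kit and the methods a 5′ kit, so levels were compared within a tissue. A barcode was kept when it held 200 genes or more and no more than 10% of its UMIs were mitochondrial. A cell was gated to the class with the most of 5 markers detected, at least 2 and 1 more than in any other class. Barcodes tied between classes at 2 or more markers were left out of the classes (6.6% to 15.8% in BM, 0.2% to 0.8% in LN, 1.3% to 3.1% in spleen). A barcode with fewer markers of a second class stayed in its leading class, and no doublet caller was run. Libraries of a tissue shared at most 476 barcodes (2.56% of the smaller library), and the highest share in any pair was 2.89%. Counts were summed per library and class with at least 20 cells and fitted over all genes with edgeR 4.0.16 in R 4.3.3 (TMM, filterByExpr, robust quasi-likelihood test, Benjamini-Hochberg over all genes of a class). The genotype was the only term, apart from tests between classes, which had the library as a block. A call was an adjusted p under 0.05. Spleen ratios have exact 95% binomial intervals (scipy 1.17.1), and floors are 3 UMIs. Intervals and floors cover counting error only. UMIs are tags of molecules and levels were not compared between genes. Alternatives were RLE factors, library totals alone, DESeq2 1.42.0, no filter on low counts, a replicate block, a library left out, at least 500 genes a barcode, at least 3 markers, cells without a proliferation UMI, a limit of 2-fold, and LN without its 2 shallow libraries. Library totals alone, and RLE factors for class levels, were added after the data were seen. On simulated counts for GMP in Y665F against WT (11726 to 11758 genes), 29.4% of genes changed by 1 on the log2 scale and 99.1% of those changed by 2 were called, with 6.86% and 6.23% false calls. Replicates are separate libraries, and whether each came from its own mouse is not given for BM and LN in the labels, so p-values measure the spread between libraries. The 10 genes, the lists and the tests were chosen with earlier results of these data known. All 10 genes are named, with the 3 of smallest p of the 50 wider regulators among those called over all cells, and the 3 best correlated genes of each among those with at least 10 UMIs in 80% of sums (the top one only for 6 of the 10 genes in the text, and 1 correlated gene is not reported here). TCR tables were not used here. Gene coordinates and transcript lengths came from GENCODE vM21 and promoters from RefSeq.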

Additional observations from a re-analysis of the deposited data

Results flagged for a closer look

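For 7 of the 10 genes the Y665F libraries lay on opposite sides of WT in BM and spleen. Both Y665F BM libraries were above both WT BM libraries over all cells, while the Y665F spleen library was below the WT spleen library by log2 ratios of -0.28 for Tet2, -0.14 for Tet3, -0.38 for Dnmt3a, -0.46 for Ezh1, -0.14 for Asxl1, -0.33 for Kmt2d and -0.40 for Setd2. Of these, Ezh1, Asxl1 and Setd2 did not pass the test in BM. Among all genes 38.2% lay on opposite sides, counted in either direction, and the share in the direction of these genes alone is not given. For Y665H, Asxl1 and Setd2 had both BM libraries below WT, without passing the test there, and spleen ratios of 0.0599 (-0.02 to 0.14) and 0.10 (0.05 to 0.15), so that the counting interval of Asxl1 includes 0. Among all genes 18.3% lay on opposite sides in Y665H, also counted in either direction. Sides were taken on library totals alone in both tissues. The difference between the tissues was not tested, since spleen had 1 library per genotype. Spleen and BM also differed in their cell classes and in the isolation of CD45-positive cells. No group held 4 or more libraries, so none was checked for a single outlying library.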

How the results depend on the processing

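The number of calls in Y665F against WT in BM went from 8 to 5 with DESeq2, to 4 with a limit of 2-fold, and to 0 among cells without a proliferation UMI, where 10 of 70 pairs could be tested. For Y665F against Y665H the 17 calls became 8, 11 and 0 in the same order. In LN het mice the 1 call became 0 with DESeq2 and 0 among cells without a proliferation UMI. The difference between classes in Y665F went from 0 to 1 pair (Setd2 in megakaryocyte-gated cells) without the filter on low counts, and the summed spleen ratio in Y665F from -0.23 to -0.31 among cells without a proliferation UMI. Leaving out 1 library at a time gave 2 to 16 calls in Y665F against WT, 0 to 4 in Y665H against WT, 4 to 23 in Y665F against Y665H, 0 to 1 in LN het, 0 to 0 in LN homo and 14 to 19 for class levels. With 1 WT library left, that library is assumed to vary like the other groups. The replicate block gave 12 calls in Y665F against WT, 23 in Y665F against Y665H, 0 in Y665H against WT, 1 in LN het (Ezh2 in B-gated cells) and 0 in LN homo, while Ezh2 over all cells of LN het was no longer called. Deviations of same-numbered BM libraries correlated at 0.314 for WT and Y665H, 0.305 for Y665H and Y665F, and 0.052 for WT and Y665F. In LN they correlated at -0.115 to 0.0751. The main fits left the replicate number out, although it goes with sex in BM, and the block values above show what that changes. For single genes, 125 alternative values kept the call and 33 lost it in Y665F against WT, 233 and 88 in Y665F against Y665H, 130 and 3 for class levels and 16 and 16 in LN het, and no called value changed sign. Library totals alone gave 8 calls in Y665F against WT, 17 in Y665F against Y665H, 1 in LN het and 19 for class levels. The class-level and between-class fits among BM cells without a proliferation UMI could not be fitted. Except where a setting tests fewer pairs or libraries, the cause was not tested. Depth limits Ezh1, Tet2 and Kmt2d in the small BM classes and the 2 shallow LN libraries.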
